A study of Mus musculus with 6 samples.

Results

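Interleukin-6 and interleukin-11 belong to a family of cytokines that signal through gp130, the receptor chain they share. The genes described here are 4 ligands of this family (Il6, Il11, Lif and Clcf1), 4 receptor chains (Il6st, which encodes gp130, Il11ra1, Lifr and Osmr), the transcription factor Stat3 and its feedback inhibitor Socs3. They were chosen by gene symbol and make up 10 of the 55364 genes listed in the count tables. The tables come from primary mouse lung fibroblasts (LFs) of C57Bl6/J background, 3 libraries of wild-type (wt) LFs and 3 of LFs whose labels call them Tks5 knockout, while the paper on these cells names them Tks5+/-. All 6 cultures were exposed to 10 ng/ml TGF-β1 in serum-free medium for 24 h, so that no untreated level of any gene is known. The LFs were prepared from the lungs of adult littermates, aged 8 to 10 weeks according to the general protocol, by collagenase digestion and used after few passages, and no sort for fibroblasts is described. Tks5 is the podosome scaffold protein encoded by Sh3pxd2a, and its alleles remove exon 11 in every tissue through a Cre driven by the CMV promoter. Which of the described alleles these LFs carried is not given in the sources used here. The paper describes its samples as independent biologically, and neither it nor the labels say how many animals gave these libraries. The p-values measure the spread between these samples.

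In this family each ligand first binds its own receptor chain, such as Il11ra1 for interleukin-11, or pairs gp130 directly with Lifr or Osmr. The assembled receptor activates Janus kinases bound to gp130, which phosphorylate Stat3, and Stat3 then switches on target genes. Socs3 is among these targets, and its protein binds gp130 and its kinases and shuts the signal down. In lung fibroblasts, interleukin-11 is known as a secreted product of TGFβ stimulation, and interleukin-6 as a product of many inflammatory stimuli.

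Quant-Seq reads come from the poly(A) end of each transcript. The libraries held 1344507 to 2369882 counts each, and 10346 genes had enough counts for a quasi-likelihood F test in edgeR. Calls required a Benjamini-Hochberg adjusted p under 0.05 over all genes tested, with a fold change of 1.2 or more. By this rule 44.9% of all tested genes were called, 22.1% lower and 22.8% higher in labelled Tks5+/- LFs, and in 53.8% of them the CPM (counts relative to the scaled library size) of the genotypes did not overlap. Fibroblast markers such as Col1a1 and Vim were abundant in every library. Other cells' markers were not evenly spread. The summed CPM of 12 macrophage markers was 359 and 424 in wt replicates 1 and 2, 2118 in wt replicate 3 and 125 to 140 in labelled Tks5+/- LFs, where Ptprc and Adgre1 were at 0 in all 3 libraries. Of these markers 11 were tested, 7 lower and none higher. Of the endothelial markers 3 of 4 tested were lower (summed CPM 110 to 127 in wt and 45.6 to 59.9 in labelled Tks5+/- LFs, Pecam1 at 0 in the latter), as were all 3 tested of muscle and pericyte cells (66.4 to 81.1 and 15.8 to 31.8) and the 1 tested of mesothelium (18.2 to 23.8 and 2.56 to 8.23). Epithelial markers had 1 lower (Cldn4) and 1 higher (Ager) of 2 tested (22.5 to 54.1 and 29.2 to 62.0, with Sftpc and Scgb1a1 at 0 everywhere). Their sum in labelled Tks5+/- LFs was all or nearly all Ager, with 68, 103 and 57 reads against 20, 18 and 35 in wt LFs. Cldn4 had 23, 15 and 50 reads in wt LFs against 0, 3 and 0. The untested Cdh1 (17, 8 and 58) and Epcam (2, 1 and 3) had reads in wt LFs alone. The 4 lymphocyte markers were at 0 everywhere. Of 9 tested fibroblast markers, 1 was lower and 4 higher (3876 to 5254 and 5598 to 8715). The part of these other cells in the results below was not tested. Values without wt replicate 3 show only how far a result rests on that library, since the other wt libraries also held more macrophage, endothelial and muscle marker reads than any labelled Tks5+/- library. In such bulk samples fewer cells of a type and less RNA per cell cannot be told apart. Sh3pxd2a, the targeted gene, was counted 205, 190 and 284 times in wt LFs and 238, 258 and 260 in labelled Tks5+/- LFs (log2 fold change 0.29, standard error 0.20, edgeR adjusted p = 0.249). Corrected for the length trend described next, it was called higher (1.00, adjusted p = 5.20e-04), and with library totals it was at -0.13. The paper reports less Tks5 mRNA in Tks5+/- LFs by Q-RT-PCR, whereas no fit here called Sh3pxd2a lower. The reads of this kit lie outside the deleted exon, and how each allele changes them was not tested. These counts therefore do not settle the genotype, and each direction below rests on the labels. Long transcripts tended to be lower in labelled Tks5+/- LFs (Spearman's rho -0.397 between log2 fold change and transcript length across 10339 genes, which share their libraries and are not independent). Each member with enough counts for the test was therefore also fitted with every library corrected for this trend.

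The start regions of the family genes were searched for the sites of their best known regulators, because Stat3 itself is a member and because AP-1 factors are common activators of cytokine genes. Promoters of 9 of the 10 genes were matched in RefSeq (GRCm38.p6), as 12 windows of 300 bases from 250 before to 50 after a transcript start. Clcf1 was not matched. The STAT motif TTCNNNGAA and the AP-1 motif TGANTCA, each of which reads the same on both strands, were found in 8.30% and 7.81% of 32851 mouse promoters. The STAT motif occurred in 1 of the 12 windows, that of Socs3, where it begins 154 bases before the start. It lies within the stretch chr11:117969504-117969528 on the reverse strand. The AP-1 motif occurred in 4 of the 12, within the stretches chr5:30012864-30012879 (forward) for Il6, chr7:4778225-4778247 (reverse) for Il11, chr11:4257332-4257354 (forward) for Lif and chr15:6874296-6874318 (reverse) for Osmr. The motif lies 249 bases before the start in Il6, 98 before it in Il11, 228 before it in Lif and just after it in Osmr. These stretches, each the motif with flanking bases, are given below 5′ to 3′ on the gene's strand. The motif is in capitals, and a match of letters does not show that a factor binds there.
Socs3: aaccagccTTCTTAGAAgggagggg
Il6: cTGAGTCActtttaaa
Il11: agggagggTGAGTCAggatgtgt
Lif: gtcagctgTGACTCAggccatag
Osmr: cccgtagtTGATTCAtagctggg
The AP-1 core is TGAGTCA in Il6 and in Il11. That of Lif, TGACTCA, is the same site read on the other strand, while that of Osmr differs. The values of these genes follow.

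Among the 10 genes, 9 had enough counts for the test. Il11 and Il6st were lower in labelled Tks5+/- LFs, Il6, Stat3 and Socs3 were higher, and 4 were not called. A share of 5 called of 9 is near the 44.9% of all tested genes and is no result about the family. In 5 of the 9 the CPM of the genotypes did not overlap, against 53.8% of all tested genes. The median log2 fold change of the 9 was 0.14, against -0.046 over all tested genes. The members did not move one way.

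**Figure D1:**
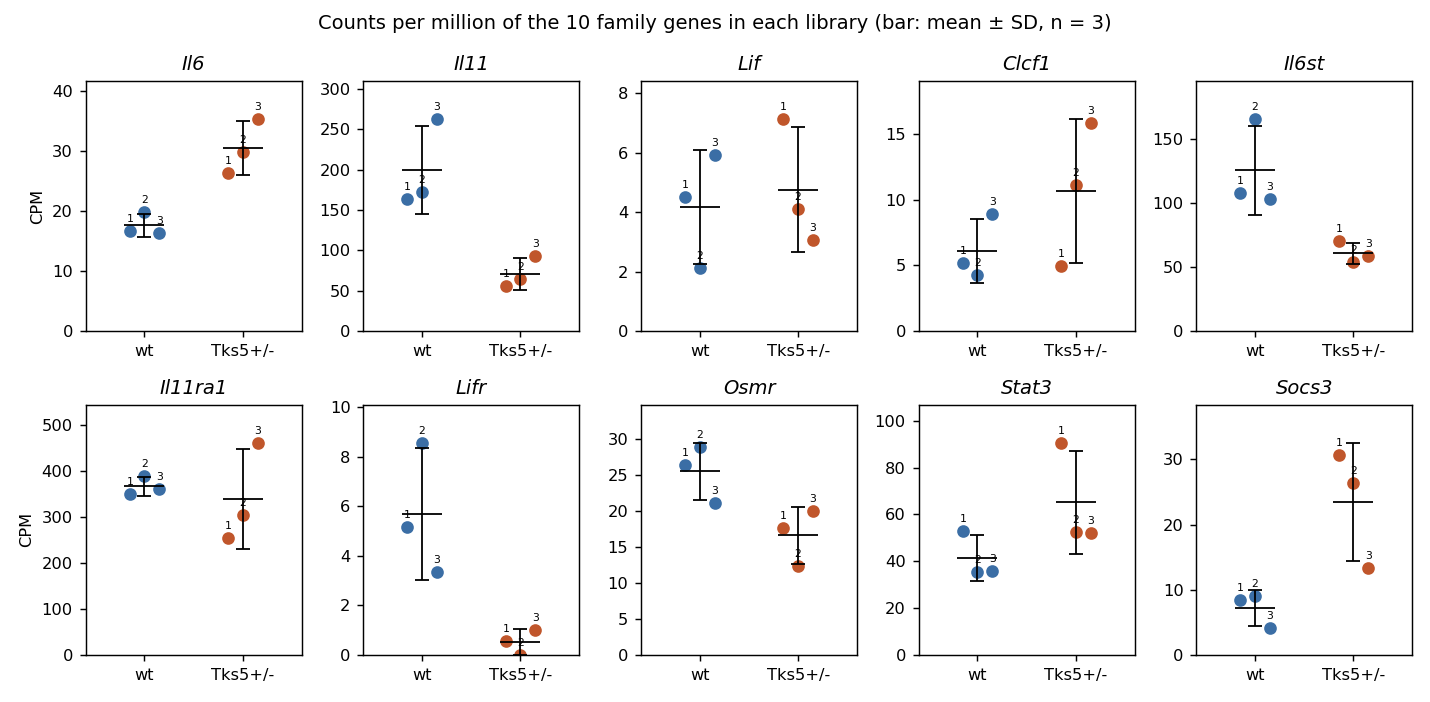
CPM (vertical axis, each panel on its own scale from 0) of the 10 family genes in 3 wt and 3 labelled Tks5+/- libraries, with points numbered by replicate and bars for the mean ± SD (n = 3). The points of the genotypes lie apart for Il6, Il11, Il6st, Lifr, Osmr and Socs3 and overlap for Lif, Clcf1, Il11ra1 and Stat3.

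The ligands moved in different directions. Il11, the interleukin-11 gene (ENSMUSG00000004371, chr7:4772373-4782859, reverse strand, GRCm38), was read 254, 323 and 708 times in replicates 1, 2 and 3 of the wt LFs and 101, 110 and 183 times in those of the labelled Tks5+/- LFs. The lowest wt library, at 163 CPM, lay well above the highest labelled Tks5+/- library, at 93.6 CPM. Replicate 3 was the highest of each genotype. The mean fell from 199.6 ± 54.7 CPM (SD, n = 3) to 71.1 ± 20.0 (SD, n = 3), which is 2.81-fold (95% interval 1.99 to 3.97, edgeR adjusted p = 3.43e-05). Without wt replicate 3, which also held most macrophage reads, the log2 fold change was -1.24 (edgeR adjusted p = 1.44e-04) in place of -1.49 (standard error 0.24). Il11 was called lower under all 18 alternative settings that gave it a value (adjusted p from 1.86e-09 to 8.52e-04). It is among the genes the study chose on these libraries, so its direction is not independent evidence.

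Il6, the interleukin-6 gene (ENSMUSG00000025746, chr5:30013114-30019981, forward strand), went the other way. It was read 26, 37 and 44 times in wt LFs, at 16.7, 19.8 and 16.3 CPM. In labelled Tks5+/- LFs it was read 48, 51 and 69 times, at 26.3, 29.8 and 35.3 CPM. The genotypes did not overlap, and the wt libraries were close to each other. The mean rose from 17.6 ± 1.90 CPM (SD, n = 3) to 30.5 ± 4.52 (SD, n = 3), or by 0.79 on the log2 scale (standard error 0.27, edgeR adjusted p = 0.0188). The call was lost without wt replicate 1 (0.76, adjusted p = 0.0520), without wt replicate 3 (0.73, adjusted p = 0.0682) and without labelled Tks5+/- replicate 3 (0.71, adjusted p = 0.0700), and with library totals in place of TMM scaling (0.37, adjusted p = 0.256). Its adjusted p lay between 0.0115 and 0.256 in the alternatives.

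Lif, the leukaemia inhibitory factor gene (ENSMUSG00000034394, chr11:4257557-4272514, forward strand), was near the limit of this depth. It gave 7, 4 and 16 reads in wt LFs and 13, 7 and 6 in labelled Tks5+/- LFs. The CPM of 4.51, 2.14 and 5.93 in wt LFs overlapped those of 7.13, 4.10 and 3.07 in labelled Tks5+/- LFs. A difference was not detectable (log2 fold change 0.14, 95% interval -0.93 to 1.199, edgeR adjusted p = 0.849), and the direction turned without wt replicate 2 (-0.16), without labelled Tks5+/- replicate 1 (-0.22) and with library totals (-0.27). Clcf1, the gene of cardiotrophin-like cytokine factor 1 (ENSMUSG00000040663, chr19:4214238-4223490, forward strand), gave 8, 8 and 24 reads in wt LFs and 9, 19 and 31 in labelled Tks5+/- LFs. Labelled Tks5+/- replicate 1 sat among the wt libraries and the other two above them. Its log2 fold change was 0.75 (95% interval -0.17 to 1.67, edgeR adjusted p = 0.174), and without that replicate it was called higher (1.14, adjusted p = 0.0392, 0.0392 to 0.584 over its alternatives). Exons of AC109138.7, on the same strand, share 311 bases with it, so some reads could belong to either gene.

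Set side by side within each library, the ligand reads do not depend on the scaling between libraries. Il11 took 86.1%, 86.8% and 89.4% of the 295, 372 and 792 reads of the 4 ligands in wt replicates 1, 2 and 3. In labelled Tks5+/- LFs it took 59.1%, 58.8% and 63.3% of 171, 187 and 289 reads. The Wilson 95% intervals, which cover counting error only, reached down to 81.7% in wt LFs and up to 68.7% in labelled Tks5+/- LFs, so that no interval of one genotype met one of the other. The mean share was 87.4 ± 1.73% (SD, n = 3) against 60.4 ± 2.53% (SD, n = 3), a difference of -27.0 percentage points (two-sided exact permutation test, p = 0.1, below which 3 against 3 samples cannot go). Il11 remained the ligand with most reads in every library, and leaving out any library kept the difference between -28.5 and -26.1 points. These are shares of reads with no correction for the length trend, which moved the log2 fold change of Il11 from -1.49 to -1.66, of Il6 from 0.79 to 0.71, of Clcf1 from 0.75 to 0.88 and of Lif from 0.14 to 0.34.

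**Figure D2:**
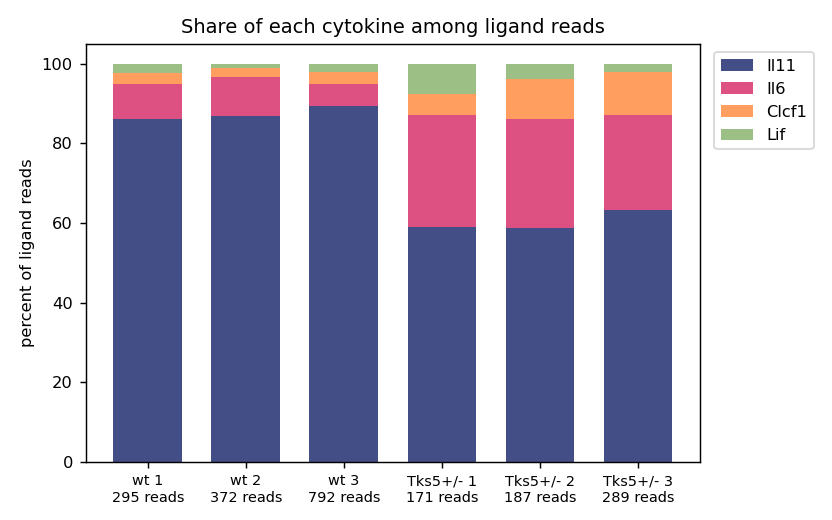
Percent of the reads of Il11, Il6, Clcf1 and Lif (vertical axis, stacked to 100) that fell on each gene in every library, with the number of ligand reads under each bar. Il11 held 86.1 to 89.4% in the 3 wt libraries and 58.8 to 63.3% in the 3 labelled Tks5+/- libraries.

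The receptor genes were lower or not distinguishable. Il6st (ENSMUSG00000021756, chr13:112464070-112510086, forward strand), whose product gp130 every cytokine of the family uses, was counted 168, 310 and 279 times in wt LFs and 128, 92 and 115 in labelled Tks5+/- LFs. In CPM the wt libraries stood at 108, 166 and 103 and the labelled Tks5+/- libraries at 70.2, 53.8 and 58.9, without overlap and with the wider spread in wt LFs. The mean fell from 125.8 ± 34.8 to 61.0 ± 8.41 CPM (SD, n = 3 each), with -1.04 as the log2 fold change (standard error 0.23, edgeR adjusted p = 7.56e-04). The call held whichever library was left out. Its longest transcript has 8678 bases, and with the correction for the length trend the log2 fold change was -0.44 and no longer called (adjusted p = 0.113, 5.02e-05 to 0.143 over its alternatives).

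Osmr, the oncostatin M receptor gene (ENSMUSG00000022146, chr15:6813577-6874969, reverse strand), gave 41, 54 and 57 reads in wt LFs and 32, 21 and 39 in labelled Tks5+/- LFs. The CPM of 26.4, 28.9 and 21.1 in wt LFs lay just above those of 17.6, 12.3 and 20.0 in labelled Tks5+/- LFs. The difference was not called (log2 fold change -0.60, standard error 0.29, edgeR adjusted p = 0.0929). It passed the test with a correction for GC content (-0.72, adjusted p = 0.0455) and with library totals (-1.02, adjusted p = 0.00678), and shrank to -0.22 with the length correction, for a longest transcript of 5491 bases. Its adjusted p ran from 0.00678 to 0.591 over its alternatives.

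Lifr, the leukaemia inhibitory factor receptor gene (ENSMUSG00000054263, chr15:7090614-7197489, forward strand), was counted 8, 16 and 9 times in wt LFs and 1, 0 and 2 in labelled Tks5+/- LFs. Every wt library was above every labelled Tks5+/- library, but the counts were too low for the filter, so Lifr has no value in the main test. Over 33 and 3 reads, and relative to the scaled library sizes, the level in wt LFs was 9.86 times that in labelled Tks5+/- LFs (exact 95% interval 3.09 to 50.2, for counting error only). This ratio ran from 6.79 without labelled Tks5+/- replicate 2 to 19.0 without labelled Tks5+/- replicate 3, and was 12.8 without wt replicate 3. The 0 in labelled Tks5+/- replicate 2 allows up to 3 counts. With no filter, edgeR called Lifr lower (adjusted p = 0.00112). It has the longest transcript of the family, with 9655 bases, and no fit with the length correction was made for it.

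Osmr and Lifr lie near each other on chromosome 15 and encode alternative partners of gp130. Osmr held 83.7%, 77.1% and 86.4% of the reads of this pair in wt LFs and 97.0%, 100% and 95.1% in labelled Tks5+/- LFs, of 49, 70, 66, 33, 21 and 41 reads. The genotypes did not overlap, though with so few reads the Wilson intervals of single libraries did. The means were 82.4 ± 4.74% and 97.4 ± 2.46% (SD, n = 3 each), 14.97 percentage points apart (p = 0.1 by the same exact permutation test). These shares, too, have no correction for the length trend, and Lifr has the longer transcript. They rest on 3 Lifr reads in the labelled Tks5+/- libraries.

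Il11ra1, the gene of the receptor chain specific for interleukin-11 (ENSMUSG00000073889, chr4:41699989-41769474, forward strand), was listed with 544, 728 and 974 reads in wt LFs and 462, 519 and 901 in labelled Tks5+/- LFs. The chemokine gene Ccl27a, which meets it from the opposite strand (chr4:41769467-41774247) and shares 8 exon bases, was listed with the same number in 5 of the 6 libraries and with 1 more in the other. The same reads were thus given to both genes, and their share from Il11ra1 cannot be read from the tables. Taken as listed, the CPM were 350, 390 and 361 in wt LFs and 254, 304 and 461 in labelled Tks5+/- LFs, so that the genotypes overlapped. The log2 fold change was -0.11 (95% interval -0.57 to 0.34, edgeR adjusted p = 0.706). The direction turned without labelled Tks5+/- replicate 1 (0.11) and with the GC correction (0.05), while library totals (-0.54, adjusted p = 0.0387) and the authors' normalized counts (-0.61, limma adjusted p = 0.0309) called it lower, with an adjusted p of up to 0.994 over its alternatives. Its near copy Il11ra2 had at most 1 count in a library.

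**Figure D3:**
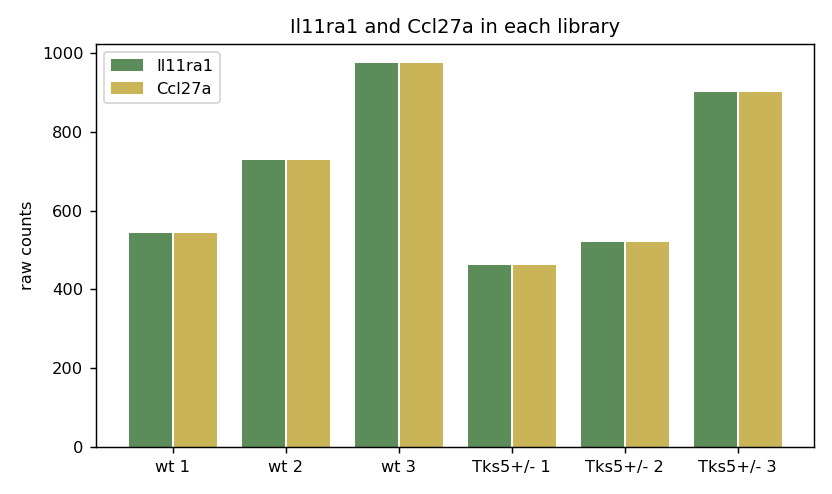
Raw counts (vertical axis) listed for Il11ra1 and Ccl27a in the 3 wt and 3 labelled Tks5+/- libraries. The bars of each pair are of equal height in 5 libraries and differ by 1 count in labelled Tks5+/- replicate 2.

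Stat3 and Socs3, on the signalling side, were called higher. Stat3 (ENSMUSG00000004040, chr11:100885098-100939540, reverse strand) gave 82, 66 and 97 reads in wt LFs and 165, 90 and 102 in labelled Tks5+/- LFs. The highest wt library, at 52.8 CPM, matched the lower labelled Tks5+/- libraries, at 52.7 and 52.2, and labelled Tks5+/- replicate 1 stood apart at 90.5. The log2 fold change was 0.67 (standard error 0.25, edgeR adjusted p = 0.0355), and the call rested on single libraries. It was lost without labelled Tks5+/- replicate 1 (0.41, adjusted p = 0.196), without wt replicate 2 (0.57, adjusted p = 0.140), without wt replicate 3 (0.57, adjusted p = 0.119), with DESeq2 (0.69, adjusted p = 0.0515), with the authors' normalized counts (0.54, limma adjusted p = 0.0951) and with library totals (0.26, adjusted p = 0.434). With the length correction it was 1.09 (adjusted p = 0.00105), and its adjusted p lay between 4.19e-04 and 0.434 in the alternatives. The end of Stat3 shares 72 exon bases with Stat5a on the opposite strand, which had 0 to 11 counts in a library.

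Socs3 (ENSMUSG00000053113, chr11:117966079-117970047, reverse strand) showed the largest rise of the family. It was counted 13, 17 and 11 times in wt LFs and 56, 45 and 26 in labelled Tks5+/- LFs. In CPM these were 8.37, 9.10 and 4.08 against 30.7, 26.3 and 13.3. The genotypes did not overlap, and replicate 3 was the lowest of each. The mean rose from 7.18 ± 2.71 to 23.5 ± 9.06 CPM (SD, n = 3 each), 3.35-fold (95% interval 1.94 to 5.80, edgeR adjusted p = 8.02e-04). It was called higher under all 18 alternative settings, among them the fit without wt replicate 3 (log2 fold change 1.40 in place of 1.75, adjusted p = 0.00689) and the length correction (1.71), with adjusted p from 2.08e-05 to 0.0083. Socs3 is also the member with the STAT motif before its start, a motif that 8.30% of mouse promoters hold. Whether the motif has a part in the rise was not tested.

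**Figure D4:**
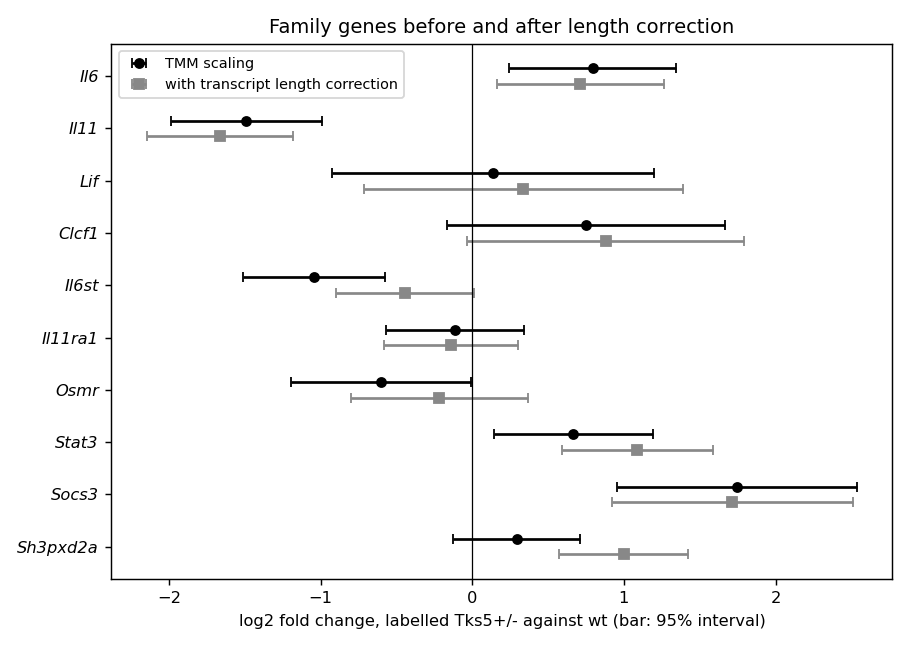
Log2 fold change of labelled Tks5+/- against wt LFs (horizontal axis, bars for the 95% interval) of the 9 tested family genes and Sh3pxd2a, with TMM scaling (black circles) and with each library also corrected for its trend with transcript length (grey squares). The intervals of Il6st and Osmr cross 0 only after the correction, while those of Il6, Il11, Stat3 and Socs3 stay on their side of 0.

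By the distance between centred log2 CPM over the 6 libraries, the genes whose pattern was most like that of Il11 among 10023 compared were Suco (0.288), Nacc1 (0.396) and Gpatch4 (0.417). Suco gave 65, 83 and 163 reads in wt LFs and 26, 28 and 38 in labelled Tks5+/- LFs, with replicate 3 highest in each genotype, as in Il11.

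Of 51 other genes of the pathway, 35 were tested, of which 10 were lower and 5 higher in labelled Tks5+/- LFs and 20 were not called. That is near the 44.9% called of all tested genes and is no result about the pathway. Their median log2 fold change was -0.24, against -0.046 over all tested genes. Among these 51 genes, no tested cytokine, receptor-side gene or inhibitor passed in the main fit.

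Of 8 further cytokine genes, 3 were tested. None was called in the main edgeR fit, with a log2 fold change of -0.60 for Il27 (adjusted p = 0.229) and -0.43 for Ctf2 (adjusted p = 0.483). Il27 was called lower under 3 of 18 alternatives. Among them were the length correction (-1.11, edgeR adjusted p = 0.0289) and library totals (-1.01, edgeR adjusted p = 0.0415). Ctf2 was called under 0 of 17. Osm, the ligand of Osmr, had at most 1 count in a library.

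On the receptor side, 2 of 7 genes were tested. These were the sheddases Adam10 (log2 fold change -0.53, edgeR adjusted p = 0.0753) and Adam17 (-0.22, adjusted p = 0.418), which can release membrane receptors such as that of interleukin-6. Il6ra, the receptor chain specific for interleukin-6, gave 1, 8 and 10 reads in wt LFs and 4, 4 and 3 in labelled Tks5+/- LFs and was not tested.

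Of 9 transducers 8 were tested and 2 were called, both lower. Jak2, a kinase that gp130 binds, was counted 51, 45 and 68 times in wt LFs and 20, 31 and 16 in labelled Tks5+/- LFs (log2 fold change -1.14, standard error 0.32, edgeR adjusted p = 0.00533). With the length correction it was -0.79 (adjusted p = 0.0505), the one of 18 alternatives without a call. Tyk2 (-0.99, adjusted p = 0.0583) and Gab1 (-0.56, adjusted p = 0.272) were not called. Among 5 further inhibitors 3 were tested and none was called by edgeR, with Ptpn2 at 0.70 (adjusted p = 0.199), Pias3 at -0.24 (adjusted p = 0.512) and Socs2 at -0.15 (adjusted p = 0.642). At an unadjusted p under 0.05 there was 1 of the tested cytokines, 1 of the receptor-side genes and 0 of these inhibitors, and neither DESeq2 nor limma-voom called any of the 3 groups. With library totals edgeR did call Adam10 (-0.94, adjusted p = 0.00363) and Adam17 (-0.64, adjusted p = 0.0162) lower. They were called under 2 and 1 of 18 alternatives. Ptpn2, Pias3 and Socs2 were called under none.

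The target list held calls in both directions. Of 22 genes known to respond to Stat3, 19 were tested, with 8 lower, 5 higher and 6 not called, against 22.1% lower and 22.8% higher of all tested genes. Their median log2 fold change was 0.15. Acute phase genes were among the lower. Hp, the haptoglobin gene, gave 221, 256 and 371 reads in wt LFs and 9, 7 and 5 in labelled Tks5+/- LFs (log2 fold change -5.15, standard error 0.29, edgeR adjusted p = 2.77e-11). Saa3, a serum amyloid A gene, had 3794, 4695 and 2517 counts against 34, 41 and 26. The genotypes lay far apart in each of these genes.

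Ccl2, a chemokine that draws monocytes, was counted 457, 483 and 865 times in wt LFs and 128, 143 and 84 in labelled Tks5+/- LFs (-2.15, standard error 0.24, edgeR adjusted p = 3.09e-07). Icam1, an adhesion molecule for leukocytes, had 84, 84 and 106 against 19, 23 and 28 (-1.84, standard error 0.27, edgeR adjusted p = 1.01e-05). Hp, Ccl2 and Icam1 were also called lower without wt replicate 3. The other targets called lower, named after their values were seen, were Lbp (-3.68), Bcl2l1 (-1.13), Bcl6 (-0.83) and Junb (-0.56), of which Bcl2l1 was called under all 18 alternatives and Lbp under 16 of 17. Bcl6 was called under 9 of 18 and not without wt replicate 2, wt replicate 3, or labelled Tks5+/- replicate 1 or 3 (edgeR adjusted p from 0.0741 to 0.111). Junb was called under 10 of 18, was at -0.18 with the GC correction, and of the fits without 1 library kept its call only without wt replicate 3 (the others gave adjusted p from 0.0797 to 0.235).

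The 5 targets called higher, also named after their values were seen, were the survival gene Mcl1, the cell cycle gene Ccnd1, the transcription factors Cebpd and Nfil3 and the kinase Pim3. Mcl1 had the largest fitted rise, with 260, 219 and 363 reads in wt LFs and 487, 869 and 809 in labelled Tks5+/- LFs (log2 fold change 1.51, standard error 0.24, edgeR adjusted p = 2.43e-05). Ccnd1 (1.45), Nfil3 (1.29), Cebpd (1.25) and Pim3 (0.84) followed, with edgeR adjusted p from 9.71e-05 to 0.0104. With library totals Nfil3 (0.88, adjusted p = 0.0618) and Pim3 (0.41, adjusted p = 0.184) were no longer called, and Pim3 also lost its call without wt replicate 1 (adjusted p = 0.0672) and without labelled Tks5+/- replicate 3 (adjusted p = 0.0592). Mcl1 and Bcl2l1, which both encode survival proteins of the same family, moved in opposite directions.

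**Figure D5:**
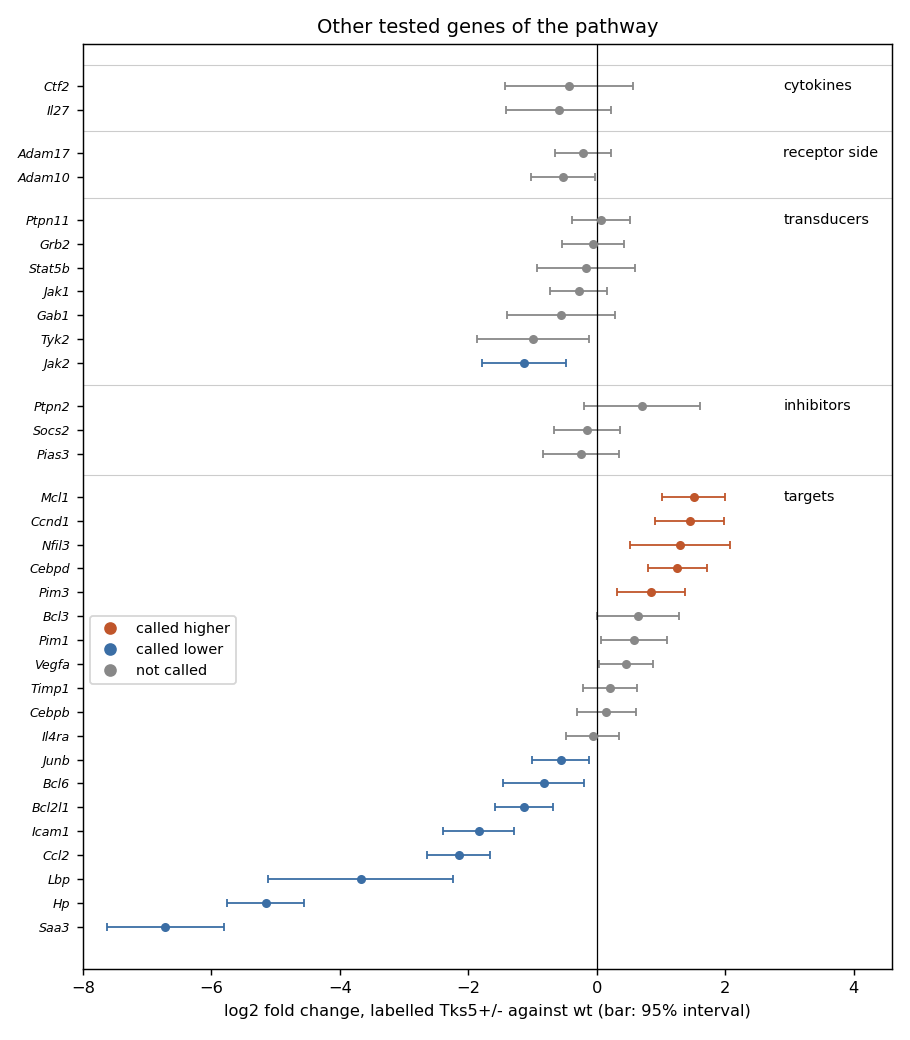
Log2 fold change of labelled Tks5+/- against wt LFs (horizontal axis, bars for the 95% interval) of 33 tested other genes of the pathway, grouped by role. Calls lie among the transducers (Jak2, lower) and the targets (8 lower in blue, 5 higher in orange), and the grey genes were not called.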

How the data were processed

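Quant-Seq libraries of 3 wt and 3 labelled Tks5+/- LFs were used. The authors deposited raw counts, for which reads were trimmed (Trim Galore), aligned to GRCm38 (HISAT2, then Bowtie2), assigned to UTRs with metaseqR2 and added up over each gene. The strand setting is not given in the sources used here. The authors' normalized counts, used as a score in 1 alternative only (as log2(value + 1) in fits, unlogged in shares), were normalized with EDASeq and rounded, and hold the same sorted values in every library. Of 55364 genes listed, 55104 were matched to symbols and coordinates of GENCODE M21, and 21720 had a count.

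The raw counts were analysed with edgeR 4.0.16 in R 4.3.3 (robust quasi-likelihood F test after filterByExpr and TMM scaling, adjustment over 10346 genes). The common dispersion was 0.0429. CPM refer to TMM-scaled library sizes. Single values were compared by exact two-sided permutation tests. Alternatives used DESeq2 1.42.0, limma 3.58.1, other scalings and filters, no fold change threshold, corrections for GC content and transcript length (loess span 0.5), a replicate block, and fits without 1 library each.

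The members and lists were chosen with earlier results of these data known. The genes named were all members, per role the 4 other tested pathway genes with the smallest adjusted p, Sh3pxd2a, and the 3 genes nearest to Il11 by Euclidean distance among tested genes with at least 10 counts on average. Ccl27a, AC109138.7 and Stat5a are named because they overlap a member. Il6ra, Il11ra2, Osm and the targets outside the rule were named after their values were seen. Some genes of the pathway list are counted but not reported by name here. The study's combination of 9 tests was not run.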

Additional observations from a re-analysis of the deposited data

How the results depend on the processing

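Il11 and Socs3 kept their direction and call under all 18 alternatives run for them, and the ligand and Osmr shares kept their direction in the 8 run for each. Library totals in place of TMM scaling shifted the median of all genes from -0.046 to -0.47 (log2) and gave 1362 genes higher and 3944 lower, against 2356 and 2286. With them 1 family gene was higher and 4 lower in place of 3 and 2, 3 pathway genes were higher and 16 lower in place of 5 and 10, and the direction turned for Lif (-0.27) and Sh3pxd2a (-0.13). The length correction, alone or with the replicate block, left 1 family gene lower. Leaving out 1 library gave 1 to 3 family genes higher (1 without wt replicate 3) and 2 to 3 lower, -0.22 to 0.53 for Lif and -0.36 to 0.11 for Il11ra1, which the GC correction put at 0.046. In all, 3705 genes (10 or more counts required in every library) to 5306 genes (library totals) were called, and 3853 to 4595 with a library left out.

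Replicate numbers are shared by the genotypes, but same-numbered libraries did not deviate together (correlations -0.001, -0.064 and 0.082), so the numbers are not taken as pairs. With the replicate block 4668 genes were called in place of 4642, and 2 family genes were lower and 3 higher, as without it. The sign-flip test of the ligand share under this pairing gives 0.25, the smallest p it allows. Depth limits Lif, Clcf1 and Lifr, which had 0 to 31 counts in a library.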
